A study of Mus musculus with 192 samples.

Results

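A set of 10 genes of the actin cytoskeleton and its partners was followed through single mouse embryonic fibroblasts by the 5′ ends of their RNAs. They are the 2 cytoplasmic actins Actb and Actg1, the monomer-binding and filament-severing proteins Cfl1, Pfn1, Tmsb4x and Tmsb10, the crosslinkers Actn1, Actn4 and Flna, and the intermediate filament protein Vim. The 10 genes stand among 18460 genes in the deposited RefSeq annotation of start windows. They own 212 of its 553094 windows within 1000 bp of an annotated start, and 194 of these 212 held a peak on the gene's strand in at least 1 retained cell. The genes were selected on measured values of these cells: Actb, Actn4 and Cfl1 were taken to list a start window in most cells of one group and in few of the other. The differences between the groups are therefore given as a description.

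The cells came from C57BL/6 mice, and per the labels each cell received interferon-beta, a secreted antiviral protein, at 100 U/ml for 1 h. The labels call 96 cells naïve and 96 pretreated. With what the latter were pretreated is not given, and no untreated cells are among the samples. The assay, single-cell start-site sequencing of polyadenylated RNA, was applied to find alternative transcription start sites.

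Actin monomers assemble into filaments that grow at one end and come apart at the other. Cofilin severs and depolymerises old filaments, profilin hands monomers to growing ends, and the β-thymosins hold a reserve of monomers away from assembly. α-Actinins and filamin tie filaments into bundles and webs, and vimentin forms the separate intermediate filament network that is typical of fibroblasts and other mesenchymal cells. Actb, Cfl1 and Vim are among the genes that fibroblasts express most strongly.

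Each sample is 1 cell and the labels name no animal, culture or plate, so each group counts as 1 sample, no test between the groups was possible, and no difference below has a replicate check. Intervals are exact, at 95%, and cover counting error only, because a tag is a read and not a molecule. After cells under 10% of the median total were left out, 92 naïve and 85 pretreated cells remained, with a median of 2305627.5 tags (305066 to 3857034) and 2650490 tags (502374 to 13174313). Naïve cells listed a median of 5231.5 peaks and pretreated cells 6605. The file headers number the tag directories 1 for the naïve cells and 2 for the pretreated cells, so whatever that number marks cannot be told apart from the pretreatment. The summed level of 8 fibroblast markers was 4968 CPM (tags per 1000000 sense gene tags) in naïve cells (1254 to 11131 per cell) and 5947 CPM in pretreated cells (377 to 12364 per cell). Sparc alone gave 3881 and 5036 CPM of these sums and sets their direction. Slightly higher in pretreated cells were also Col1a1 (431.3 against 497.5 CPM), Col1a2 (56.98 against 58.02 CPM) and Pdgfrb (28.16 against 32.36 CPM). Lower there were Fn1, at 377 against 193.9 CPM, Col3a1, at 179 against 126 CPM, and Pdgfra, at 12.8 against 3.34 CPM. Of the 8 markers, Thy1 was listed in 1 naïve and 0 pretreated cells. No tags were listed for 3 of 4 epithelial markers, 3 of 4 endothelial markers or Myog, and Krt5, Ptprc, Emr1, Myod1, Myf5, Ckm, Sox2 and Sox10 own no window in the annotation, so no level is given for them. The endothelial marker Kdr had 3.64 CPM, in 1 pretreated cell. The blood markers with windows summed to 10.9 CPM against 2.22 CPM, in 10 naïve and 3 pretreated cells, and the neural ones to 3.34 CPM against 13.9 CPM, in 3 and 11 cells. Their part in the results was not tested.

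The letters just before the members' annotated starts give the setting for the start-site peaks described next. RefSeq promoter entries on GRCm38.p6 matched 9 of the 10 members. The 100 bases before the start are printed for the 3 members whose preferred position in the cells is described in most detail (Vim, Cfl1 and Pfn1) and for Actg1, a little-listed actin. Each runs 5′ to 3′ on the gene's strand, with motif matches on either strand in capitals.
Vim (chr2:13574211-13574310, + strand): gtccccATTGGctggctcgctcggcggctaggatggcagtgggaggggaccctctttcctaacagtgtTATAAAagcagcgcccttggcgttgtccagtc
Cfl1 (chr19:5490355-5490454, + strand): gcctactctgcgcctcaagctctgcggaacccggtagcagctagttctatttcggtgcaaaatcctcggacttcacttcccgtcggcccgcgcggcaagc
Pfn1 (chr11:70654651-70654750, − strand): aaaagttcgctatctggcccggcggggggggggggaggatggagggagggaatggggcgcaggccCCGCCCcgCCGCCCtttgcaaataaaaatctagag
Actg1 (chr11:120348496-120348595, − strand): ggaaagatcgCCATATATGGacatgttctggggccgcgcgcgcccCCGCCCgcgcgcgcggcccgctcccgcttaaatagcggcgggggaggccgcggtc

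The motifs searched were the TATA box (TATAAA), the CCAAT box (CCAAT), the GC box (GGGCGG) and the CArG box, which is the site known to bind serum response factor. Vim held a TATA box 32 to 27 bases before the start and a CCAAT box, on the reverse strand, 94 to 90 bases before it. Pfn1 held a GC box at 35 to 30 bases and another at 27 to 22 bases. Actg1 held a CArG box at 90 to 81 bases and a GC box at 55 to 50 bases, while Cfl1 and Tmsb4x held none of the motifs. Among the members not printed, Actn1 held a CCAAT box and 2 GC boxes, Actn4 held 2 GC boxes and Flna held 1 GC box. A GC box was also in 1 of the 3 Tmsb10 entries. Over the 32851 RefSeq promoters of the same length, 5.56% held the TATA box, 18.9% the CCAAT box, 24.7% the GC box and 0.615% the CArG box. These matches describe letters only. The peaks are on genome build mm9, so they were not placed on these sequences.

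Taken as a family, the 10 genes held 1.57% of gene tags in naïve cells (1.568% to 1.572%) and 0.875% in pretreated cells (0.8736% to 0.8761%), a log2 ratio of −0.84 (pretreated over naïve). The share per cell ran from 0.0983% through a median of 1.44% to 2.83% in naïve cells, and from 0.0414% through 0.816% to 2.02% in pretreated cells, so the groups overlapped. Actb alone made up 67.5% of the family's tags in naïve cells and 45.4% in pretreated cells. Without Actb the other 9 genes held 0.511% and 0.478%, a log2 ratio of −0.10, with Cfl1 and Tmsb4x lower and Pfn1 and Vim higher in pretreated cells. One cell in each group stood apart, with the lowest family level of its group: naïve cell 31 had an Actb signal of 4360 and pretreated cell 93 one of 1094 (signals are tags per 10000000 tags of the cell). Leaving out both cells left the family's log2 ratio at −0.84.

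**Figure D1:**
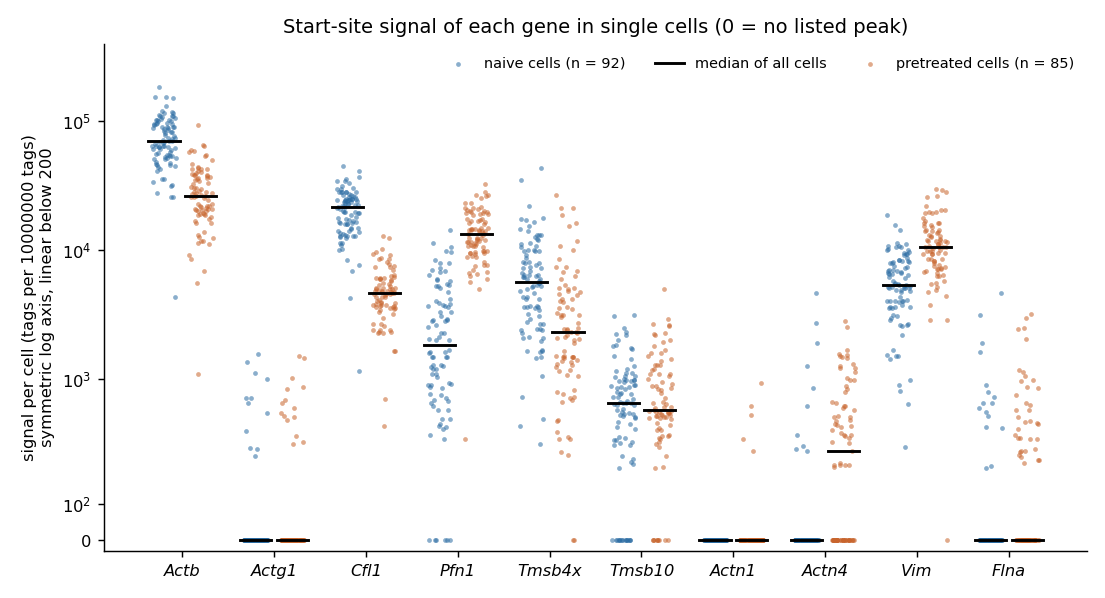
Signal of each member in single cells, in tags per 10000000 tags on an axis that is logarithmic above 200 and linear below; each point is 1 cell (92 naïve, 85 pretreated), and bars are medians over all cells, with 0 for cells that list no peak. Actb, Cfl1 and Tmsb4x have the higher median in naïve cells, Pfn1, Vim and Actn4 in pretreated cells, and Actg1, Actn1 and Flna are at 0 in most cells of both groups.

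Actb encodes β-actin, the main cytoplasmic actin of non-muscle cells. Its signal within 1000 bp of the start was 4360 in the lowest naïve cell, 70421 at the median and 185738 in the highest, against 1094, 26456 and 93876 in pretreated cells. The groups overlapped, but 27 naïve cells lay above the highest pretreated cell, and 89 of 92 lay above the pretreated median. Summed over cells, Actb gave 10590 CPM in the naïve group and 3968 CPM in the pretreated one, 2.67 times less (log2 ratio −1.42, interval −1.42 to −1.41). It ranked 3rd of all genes in naïve cells and 11th in pretreated cells. Each cell listed it, in both groups.

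Actg1, which encodes γ-actin and differs from β-actin in a few residues at the amino end of the protein, was seldom listed. It had a peak in 12 of 92 naïve cells (13.04%, 6.93% to 21.7%) and 15 of 85 pretreated cells (17.6%, 10.2% to 27.4%). The highest signals were 1550 and 1506, so the groups covered the same range. The summed level was 11.5 CPM against 21.2 CPM (log2 ratio 0.89), below the 50 CPM asked of a gene for a call. This value was not stable: windows within 250 bp gave −0.11, odd-numbered cells 0.41 and even-numbered cells 1.70. Other genes with transcript stretches of at least 100 bases at 95% identity or more exist for Actb (3), Actg1 (7, each a pseudogene), Cfl1 (2) and Tmsb10 (6) in GENCODE vM21. The likeness reached to near the 5′ end of the member's transcript in 0 of them for Actb, 7 for Actg1, 1 for Cfl1 and 2 for Tmsb10. The authors' handling of reads that fit several places is not stated, so the levels of these 4 members are uncertain to that extent. On the GENCODE scale the Actb pseudogene Gm15725 had 836.9 CPM against 792.3 CPM, and the Actg1 pseudogene Gm12715 had 45.8 CPM and 0.

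Cfl1, which encodes cofilin-1, the main filament-severing cofilin outside muscle, had the largest number of cells outside the range of the other group. Naïve cells ran from 1147 through a median of 21472 to 44899, and pretreated cells from 430 through 4662 to 12898. Of the 92 naïve cells, 77 lay above the highest pretreated cell, and none of the 85 pretreated cells reached the naïve median. Summed, Cfl1 had 2831 CPM against 689 CPM, 4.11 times less in pretreated cells (log2 ratio −2.04, interval −2.05 to −2.03). It ranked 17th and 191st. A Cfl1 peak near the start was listed in 92 of 92 naïve and 85 of 85 pretreated cells.

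Pfn1, which encodes profilin-1, the main profilin of most tissues, lay on the other side. Its signal ran from 0 through a median of 1836 to 14219 in naïve cells, and from 341 through 13304 to 32694 in pretreated cells. Of the 85 pretreated cells, 38 were above the highest naïve cell and 84 above the naïve median. The summed level was 404 CPM against 1911 CPM, 4.73 times more in the pretreated group (log2 ratio 2.24, interval 2.23 to 2.25), which took the gene from rank 352 to rank 43. A peak was listed in 86 of 92 naïve cells and in 85 of 85 pretreated cells. Cfl1 and Pfn1 thus had log2 ratios of opposite sign.

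Among the β-thymosins, Tmsb4x encodes thymosin β4, an abundant monomer-sequestering peptide. Its signal ran from 314 through 5676 to 43735 in naïve cells and from 0 through 2297 to 26844 in pretreated cells. The ranges overlapped over most of their length, with 76 of 92 naïve cells above the pretreated median and 16 of 85 pretreated cells above the naïve one. The summed level was 946.6 CPM against 499.6 CPM (log2 ratio −0.92, interval −0.93 to −0.91). Tmsb10, a related thymosin, was close to level between the groups, with a median signal of 648 in naïve cells (0 to 3147) against 568 in the pretreated group (0 to 4956), and with 100.2 against 114.2 CPM. Its log2 ratio was 0.19 (0.16 to 0.22) and became −0.21 with median-of-ratios scaling. It was listed in 77 of 92 and 76 of 85 cells.

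Of the crosslinkers, Actn4, which encodes the non-muscle α-actinin-4, was the member whose listing differed most, a contrast on which it was selected. A peak near the start was found in 10 of 92 naïve cells (10.9%, 5.34% to 19.1%) and 49 of 85 pretreated cells (57.6%, 46.5% to 68.3%). The naïve median was 0 and the highest naïve cell 4661; the pretreated median was 275 and the highest pretreated cell 2825, so the single highest cell was a naïve one. Another naïve cell (cell 12, signal 2726) held 30.5% of the group's Actn4 tags. The summed level was 17.5 CPM against 62.8 CPM (log2 ratio 1.84, interval 1.78 to 1.90). The ratio depended on the choice of cells and annotation: it was 3.70 in odd-numbered cells, 1.06 in even-numbered cells and 0.50 with the GENCODE table. Its direction turned to −0.58 (231.1 against 154.2 CPM) when the GENCODE table was used with windows at any distance. Thinning each cell to 1007353 tags left the shares of listing cells at 10.5% and 56.6% (16 naïve and 2 pretreated cells were too shallow). The thinning drew on the tags of peaks already called and kept each peak with any tag left. It could hardly remove a listed peak, so it does not show how depth bears on the listing.

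Flna, which encodes filamin A, a long dimeric crosslinker that also binds membrane receptors, was listed near its start in 16 of 92 naïve cells (17.4%) and 37 of 85 pretreated cells (43.5%). The highest signals were 4647 and 3205, and both medians were 0. With only peaks of at least 400 per 10000000 tags counted, the difference in listing fell from 26.1 to 11.8 percentage points. The summed level near the start was 18.4 CPM against 44.3 CPM (log2 ratio 1.27, 1.21 to 1.33), below 50 CPM in both groups. Over windows at any distance the log2 ratio was 0.07, and with the GENCODE table −0.05. Actn1, which encodes the other non-muscle α-actinin, was listed at 0 near its start in naïve cells (0 of 92 cells, which allows a share of up to 3.93%) and in 5 of 85 pretreated cells (5.88%, 1.94% to 13.2%), with 2.41 CPM, so no fold is given.

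Vim, the fibroblast intermediate filament gene, ran from 295 through a median of 5368 to 18603 in naïve cells and from 0 through 10638 to 29862 in pretreated cells. Of the 85 pretreated cells, 12 lay above the highest naïve cell and 77 above the naïve median, and 8 of 92 naïve cells lay above the pretreated median. The summed level was 780.8 CPM against 1435 CPM (log2 ratio 0.88, 0.87 to 0.89). The size of the ratio depended on the settings. It was 1.30, more than 2-fold, with windows within 250 bp, and 0.48 with median-of-ratios scaling. Peaks were listed in 92 of 92 and 84 of 85 cells.

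The members were then read against the other genes. Of the 7 members with at least 50 CPM in a group, 2 (Pfn1 and Actn4) were at least 2-fold higher in pretreated cells, beside 26.7% of 2633 genes, and 2 (Actb and Cfl1) at least 2-fold lower, beside 11% of the 2633. The members' median log2 ratio was 0.19 and that of all 2633 genes 0.41 (quartiles −0.24 and 1.05, 5th to 95th percentile −1.97 to 2.46). Cfl1 lay below that range and the other 6 inside it. Median-of-ratios scaling lowers each log2 ratio by 0.40. Relative to that shift, Actb was at −1.81, Cfl1 at −2.44, Tmsb4x at −1.32, Tmsb10 at −0.21, Vim at 0.48, Actn4 at 1.44 and Pfn1 at 1.84. On that scale 402 genes were 2-fold higher and 419 lower, against 704 and 289 before it, and 658 and 663 when windows at any distance counted.

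**Figure D2:**
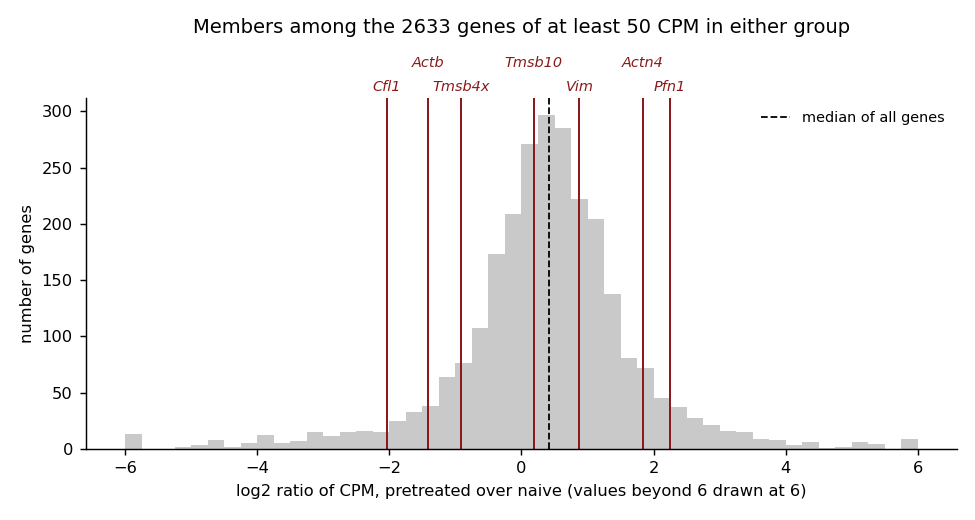
Distribution over 2633 genes (grey, number of genes per bin) of the log2 ratio of CPM, pretreated over naïve, with the 7 members of at least 50 CPM as vertical lines and the median of all genes dashed. Cfl1 (−2.04), Actb (−1.42) and Tmsb4x (−0.92) lie left of the median of 0.41, as does Tmsb10 (0.19, or −0.21 after median-of-ratios scaling), and Vim (0.88), Actn4 (1.84) and Pfn1 (2.24) lie right of it.

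For the share of cells that list a gene, 2 members differed by at least 20 percentage points, both toward pretreated cells: Actn4 by 46.8 points and Flna, which was under 50 CPM, by 26.1 points. Such a difference toward pretreated cells was found in 47.6% of the 2633 genes and toward naïve cells in 3.68%, beside 1 (Actn4) and 0 of the 7 members with at least 50 CPM. The median difference was 18.8 points over the 2633 genes and 0 over the 7 members. A gene listed in nearly each cell of both groups, as Actb, Cfl1, Tmsb4x and Vim were, cannot show such a gap.

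The position of the peaks gave a second view of the same genes, on mm9 coordinates with distances counted downstream of the annotated start. In Actb the strongest peak of each cell was the window at chr5:143668330-143668479, 29 bp downstream of the start, in 92 of 92 naïve and 85 of 85 pretreated cells. It held 100% and 99.3% of the Actb tags near the start. The start window that lies within the rule's distance thus did not separate the groups for Actb. Its median focus ratio, a fraction from 0 to 1 that is higher when the tags of a peak lie close together, was 0.943 in naïve and 0.896 in pretreated cells.

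In Cfl1 the position did differ, a contrast on which the gene was selected. The window at chr19:5490450-5490599, 69 bp downstream, was the strongest in 92 of 92 naïve cells and was listed in 8 of 85 pretreated cells (9.41%). It held 438696 tags (100% of those near the start) in the former and 13680 (9.13%) in the latter. In pretreated cells the leading window was 62 bp downstream, with 36 cells and 40.9% of tags. It was followed by 52 bp with 16 cells and 24.9%, and 59 bp with 7 cells and 12.3%. Peaks were 150 bp wide and called at least 300 bp apart, so a cell lists only 1 of these overlapping windows. A naïve cell with the window at 69 bp could therefore list none of the others, and none did. The counts and tag shares tell where the peak was centred in each cell. The strongest peak took 10 positions from 31 to 69 bp in pretreated cells, and 83.5% of these cells lay within 10 bp of the 62 bp position. The median focus ratio was 0.973 in naïve and 0.798 in pretreated cells, so Cfl1 tags were more dispersed in pretreated cells. Counting windows within 50 bp as 1 site gave 100% of cells in both groups.

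**Figure D3:**
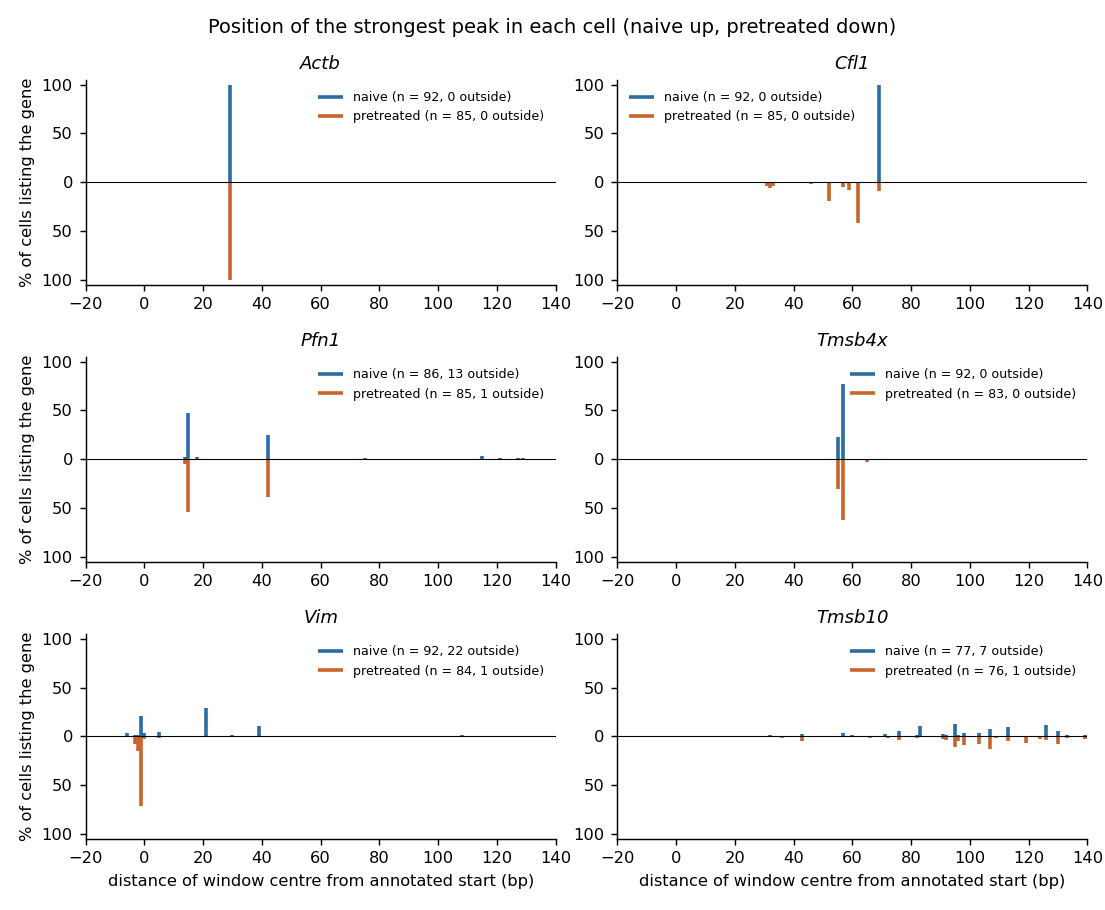
Position of the strongest peak of each cell, in bp from the nearest annotated start (x axis; Tmsb10 has more than 1), as a share of the cells that list the gene (naïve upward, pretreated downward; the legends give the cells and those outside the plotted range). Actb stays at 29 bp in both groups, Cfl1 goes from 1 position at 69 bp in naïve cells to 10 positions in pretreated cells, and Vim from 21 positions to 6.

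Vim showed the opposite spread. In naïve cells the strongest peak took 21 positions, the most frequent at 21 bp, with 30.4% of cells within 10 bp of it and the farthest at 626 bp. In pretreated cells it took 6 positions, and 98.8% of cells lay within 10 bp of the most frequent one, 1 bp upstream of the start. That window, chr2:13495863-13496012, was listed in 23 of 92 naïve cells (25%) with 15.7% of tags, and in 61 of 85 pretreated cells (71.8%) with 65.9% of tags. The window at 21 bp was listed in 30 naïve cells with 26.5% of tags and in 0 pretreated cells, and the one at 39 bp in 15 and 0. These Vim windows overlap as well, so a cell lists only 1 of them and the counts tell where its peak was centred. The median focus ratio was 0.663 in naïve and 0.804 in pretreated cells.

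Pfn1 used the same main pair of positions in both groups, 15 bp (chr11:70468063-70468212) and 42 bp downstream. The first was listed in 41 of 92 naïve and 46 of 85 pretreated cells (44.6% and 54.1%) with 56.9% and 63.2% of tags, the second in 21 and 33 cells with 20.7% and 34.2%. Away from this pair, the naïve cells were more scattered, with 20 positions against 5 and with 76.7% against 97.6% of listing cells within 50 bp of the start. In Tmsb4x the windows at 57 bp (chrX:163647019-163647168) and 55 bp led in both groups, with 83.2% and 16.8% of tags in naïve cells and 63.4% and 35.1% in pretreated cells. Tmsb10 had no dominant position, with 25 positions in 77 naïve cells and 22 in 76 pretreated cells. Its distances count from the nearest of more than 1 annotated start, so separate start regions share these positions. The window at chr6:72908320-72908469, in the region farther upstream, was listed in 8 naïve and 0 pretreated cells. Actn4 peaks were most often 90 bp downstream, in 7 naïve and 18 pretreated cells, and no single Actn4 window reached 50% of a group. Of the members' windows, 5 reached 50% of naïve or of pretreated cells, and of these 1, the Cfl1 window at 69 bp, was in at most 10% of the other group. The same held for 15% of the 374 windows that were as widely listed in the whole table, and the reverse (pretreated high, naïve low) for 9.36%. Cfl1 was selected on this contrast, so its call beside these shares is a description only.

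Positions were compared over 1298 genes that reached 50% of naïve and of pretreated cells. Of these, 49.5% had the same most frequent position in both groups, 74.3% one within 10 bp and 95.8% one within 50 bp. Of the 6 members among them, 3 (Actb, Pfn1 and Tmsb4x) kept the position, and 4 were within 10 bp. The most frequent position moved by −7 bp in Cfl1, −22 bp in Vim and 12 bp in Tmsb10, from naïve to pretreated cells. Over the 1298 genes the median focus ratio was 0.930 in naïve and 0.827 in pretreated cells, lower in pretreated cells as in Actb, Cfl1, Pfn1, Tmsb4x and Tmsb10, while in Vim it was higher there.

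Tags of the members that lay beyond 1000 bp of a start were counted apart. For Actb, 77.9% of its sense tags in naïve cells lay near the start and 96.3% in pretreated cells. Most of the far naïve tags fell in 1 window in exon 4 of 6, 2084 bp downstream (chr5:143666275-143666424). It was listed in 79 of 92 naïve cells and in 0 of 85 pretreated cells, with 376061 tags (2426.5 CPM) and a signal of 852 to 64981 (median 18237) in the listing cells. This window, outside the distance used for the members, is where Actb separated the groups by listing. With it and the other far windows counted, Actb had 13600 against 4120 CPM (log2 ratio −1.72). Windows close to the 1000 bp limit were little listed: the Actb window at 995 bp was in 1 pretreated cell with 3393 tags, and the one at 1066 bp, beyond the limit, in 1 naïve and 5 pretreated cells.

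**Figure D4:**
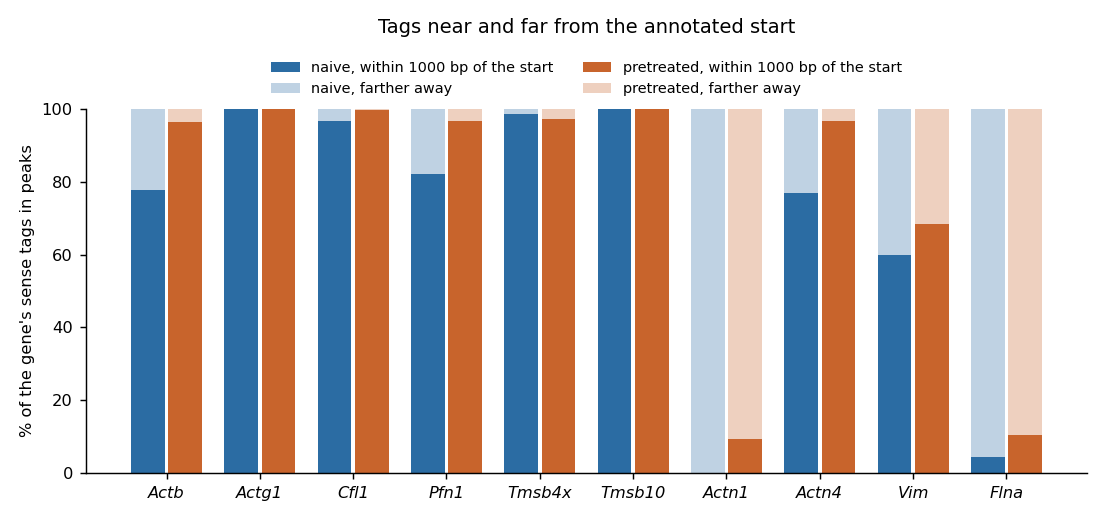
Share of each gene's sense tags in peaks (%) that lie within 1000 bp of the annotated start (solid) or farther away (pale), for naïve and pretreated cells. Flna (4.49% and 10.3% near the start) and Actn1 (0% and 9.40%) are mostly far, Vim (59.9% and 68.4%) is mixed, and Actb is at 77.9% in naïve cells and 96.3% in pretreated cells.

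Flna and Actn1 were read mostly away from their starts. Of Flna's sense tags, 4.49% in naïve and 10.3% in pretreated cells lay near the start, and exons held 93.7% and 93.9% of the rest, at 366 and 362 CPM. Exon 47 of 47 held the most widely listed of these windows, 22588 bp (12 naïve and 6 pretreated cells) and 22630 bp (5 and 11 cells) from the start. Actn1's far tags were 100% intronic in naïve and 92.4% intronic in pretreated cells, 61.7 and 21.4 CPM. Vim had 59.9% and 68.4% of its tags near the start, and its most widely listed far window in pretreated cells was in exon 6 of 9, at chr2:13501651-13501800, in 5 naïve and 19 pretreated cells with 5.15 against 72 CPM. Levels of Flna and Actn1 taken near the start thus describe a small share of their tags.

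Across cells of a group the members' levels were only loosely related. Among the 6 members listed in most cells, Spearman's rank correlation over per-cell shares was highest for Cfl1 with Pfn1 in naïve cells (0.44, n = 92; 0.28 in pretreated cells, n = 85) and for Actb with Tmsb4x in pretreated cells (0.49; 0.17 in naïve cells). Actb with Cfl1 gave 0.21 and 0.26, and Actb with Vim 0.06 and −0.05. These are descriptions: the cells of a group share a tag directory number, and the values are shares of 1 total. The 610 genes that reached 80% of naïve and of pretreated cells were ranked by the lower of their 2 correlations (1 per group) with the summed level of the members. The first 3 were Dstn, the actin-depolymerising factor (rank correlation 0.44 and 0.58), Ppa1, an inorganic pyrophosphatase (0.44 and 0.42), and Tpm1, a tropomyosin that binds along actin filaments (0.41 and 0.61), in naïve and pretreated cells.

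A list of 79 other cytoskeleton genes gives the setting. Of these, 34 had at least 50 CPM in a group, 7 of the 34 were at least 2-fold higher (26.7% of all 2633 genes were) and 2 at least 2-fold lower in pretreated cells (11% of all genes were). No cell listed 7 of the 79, among them Lcp1, which owns no window in the annotation and could not be listed. The median log2 ratio of the 34 genes was 0.53, beside 0.41 over all 2633 genes, and 0.13 after median-of-ratios scaling. Of the Arp2/3 complex, which nucleates branched filaments, 8 of 9 subunits had at least 50 CPM and 2 were 2-fold higher, beside the same 26.7% of all genes; the counts of the roles below stand beside these shares too. Its subunits ranged from Arpc5l, at 31.5 against 80.9 CPM (log2 ratio 1.36), to Arpc5, at 380.6 against 305.4 CPM (−0.32). Among nucleation promoters, 1 of 3 was 2-fold higher: Cttn, the cortactin gene, at 36.4 against 143.1 CPM (1.97), while Wasf2 was at 83.8 against 71.04 CPM (−0.24). The 6 formins were all under 50 CPM.

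Of the other monomer-binding and severing genes, 6 of 12 had at least 50 CPM and 2 were 2-fold higher, with a median log2 ratio of 0.92. Gsn, which encodes the severing protein gelsolin, was at 131 against 322 CPM (1.30), and Dstn, the related actin-depolymerising factor, was at 729.8 against 742.2 CPM (0.02). Cfl2, which encodes cofilin-2 and is named here after its values were seen, was at 66.4 against 152 CPM (1.20), opposite in sign to Cfl1 at −2.04. Capping genes had 5 of 6 above 50 CPM and 2 that were 2-fold higher, from Eps8 at 27.6 against 88.9 CPM (1.69) to Tmod3 at 155 against 129 CPM (−0.27). Among other crosslinkers, 4 of 12 had 50 CPM, with 1 that was 2-fold lower: Flnc, the muscle-enriched filamin, at 58.7 CPM in 11 naïve cells against 4.46 CPM in 10 pretreated cells (−3.72). Tagln2, at 428 against 753 CPM (0.81), was the highest there.

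Genes that link filaments to membranes and adhesions had 4 of 12 above 50 CPM, a median of −0.50 and 1 that was 2-fold lower: Vcl, which encodes vinculin, at 165.8 against 81.9 CPM (−1.02), while Iqgap1 was at 51.8 against 79.96 CPM (0.63). Of the other intermediate filament genes and their linkers 2 of 7 did, Plec at 68.5 against 136 CPM (0.99) and Lmna at 68.02 against 127 CPM (0.90), near the 0.88 of Vim.

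**Figure D5:**
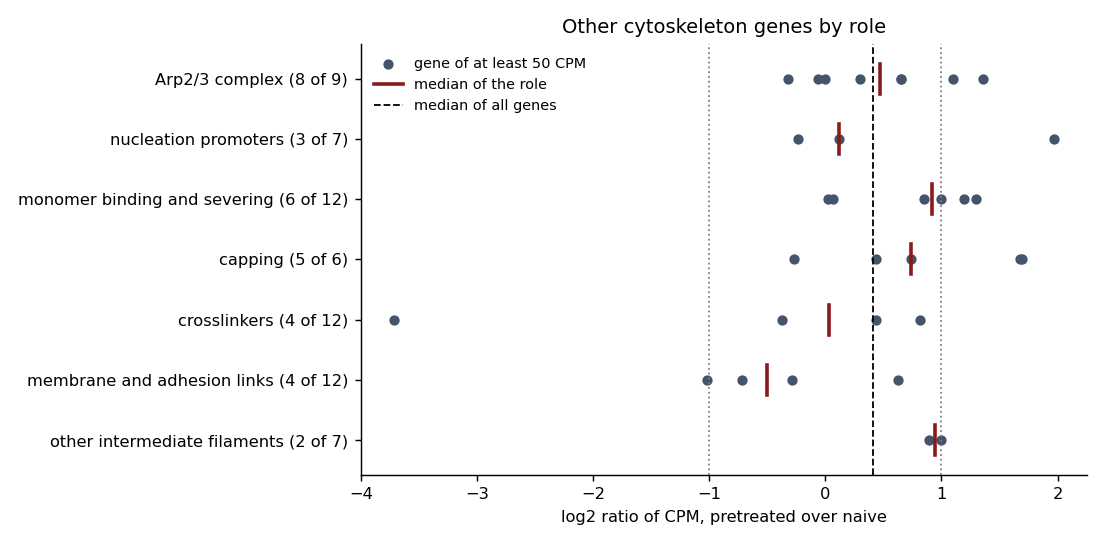
Log2 ratio of CPM, pretreated over naïve (x axis), of 32 of the 34 other cytoskeleton genes with at least 50 CPM, by role (rows; points are genes, red bars medians, and row labels give genes shown of genes in the role). Dotted lines mark 2-fold; 7 genes lie at or right of 1, and Flnc (−3.72) and Vcl (−1.02) lie left of −1.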

How the data were processed

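Single-cell start-site libraries of 96 naïve and 96 pretreated cells were used. Per the file headers, peaks were called by the authors in each cell and on each strand with HOMER findPeaks (start-site mode, peak width 150 bp, at least 300 bp apart, minimum 200 tags per 10000000). Bowtie2 and build mm9 stand in the submitters' processing notes; versions, read filters and duplicate handling are not given in the sources used here. The deposited signal gives the tags of each peak per 10000000 tags of its cell, and the deposited focus ratio is a fraction from 0 to 1. Signal times the header total gave whole tags (within 0.1, or within the last decimal deposited) for 100% of 1082504 peaks, 426263116 tags in all. The 1080791 peaks on chromosomes of the window annotation were each joined to the deposited start window within 2 bp, and the other peaks were left out. A pair of deposited matrices with 384 unnamed columns was not used.

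Cells under 10% of the median total were left out. Tags within 1000 bp of an annotated start on the gene's strand were summed per group and divided by 1000000 sense gene tags (CPM), and log2 ratios have 0.5 tag added. CPM here counts 5′ ends and is not divided by length. Intervals are exact Poisson or Clopper-Pearson. The design had foreseen no test. Called means a log2 ratio of at least 1 in size over genes of at least 50 CPM. Named genes are the 10 members, the highest and lowest gene of each cytoskeleton role (the genes of 1 role are not reported here), the 3 genes most like the members (Spearman's rank correlation of at least 0.3 in both groups), and member windows that reached 50% of naïve or of pretreated cells; other windows were named after their values were seen. The members and lists were chosen with earlier results of these data known. Scripts were tested on simulated data. Alternatives covered scaling, cell weights and filters, distance, strand, annotation, peak minimum and cell subsets. Tools were Python 3.11.15, pandas 2.3.3, numpy 2.4.6, scipy 1.17.1, matplotlib 3.10.9 and blastn 2.17.0.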

Additional observations from a re-analysis of the deposited data

Results flagged for a closer look

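The Actb window 2084 bp downstream of the start, in exon 4 of 6, lies outside the distance used for the members and held a signal in 79 of 92 naïve cells and 0 of 85 pretreated cells. Its origin was not tested. The Vim window 5787 bp downstream, in exon 6 of 9, likewise lies outside that distance and was listed in 19 of 85 pretreated cells and 5 of 92 naïve cells, which was not tested either. No untreated cells are among the samples, so a background level could not be set for either window.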

How the results depend on the processing

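No paired analysis was possible because each group is 1 sample without a test, and numbers in cell titles carry no pairing. The members' family log2 ratio of −0.84 kept its sign in each alternative run: it was −0.85 with header totals, −1.24 with median-of-ratios scaling, −0.79 with cells weighted equally, −0.86 within 250 bp, −0.98 at any distance, −0.78 on both strands, −0.77 with the GENCODE table, −0.80 with peaks of at least 400, −0.88 without the highest cell of each gene, and −0.89 and −0.80 in odd- and even-numbered cells. Of the alternatives chosen after seeing the data, leaving out the lowest cell of each group gave −0.84 and leaving out Actb −0.10, and the GENCODE table with windows at any distance gave −0.94. The median of the other cytoskeleton genes, 0.53, was, in the same order without equal weights, 0.64, 0.13, 0.64, 0.11, 0.69, 0.41, 0.64, 0.50, 0.61 and 0.48; it was 0.43 at a minimum of 10 CPM and 0.65 at 200 CPM, and 0.07 with the GENCODE table and any distance. Peaks of at least 400 left 1 member, Actn4, with a 20-point difference in listing (2 before, with Flna). Merging windows within 50 bp left 0 called start windows (1 before). Flna reversed to −0.05 with the GENCODE table, and Actn4 to −0.58 with that table and any distance. Over 15 alternatives the log2 ratio kept its sign in 15 for Actb, Cfl1, Pfn1, Tmsb4x and Vim and in 14 for Actg1, Tmsb10, Actn4 and Flna. The cause of these shifts was not tested. A cell without a listed peak is not a cell without the RNA, which bears on the shares of listing cells of Actg1, Actn1, Actn4 and Flna.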
